A study of Rattus norvegicus with 12 samples.

Results

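The 10 genes described here were Acta2, Actg2, Tagln, Cnn1, Myh11, Myl9, Smtn, Lmod1, Vcl and Srf, which encode contractile proteins of smooth muscle, the adhesion protein vinculin and serum response factor (SRF). They were taken by gene symbol, each was measured by 1 probe set that carried that symbol alone, and all 10 passed the filter on low values that left 10025 genes for testing out of 28826 probe sets. RNA came from cultures enriched for ventricular cardiomyocytes of newborn Wistar rats, plated for 44 h in serum on collagen and then held without serum for 24 h before use. The study hybridised 12 arrays in 4 groups of 3. The first group received adenovirus carrying mef2Cγ+ (γ+ cultures), the second adenovirus carrying mef2Cγ- (γ- cultures), the third adenovirus carrying mef2Cγ+23/24 (23/24 cultures), and the fourth was left untreated (control cultures). The labels do not define 23/24, name no promoter, viral dose or length of exposure, and list no virus without an insert, so that each difference from control cultures includes any effect of the virus itself. They number the arrays of a group as biological replicates but do not state that each came from its own isolation of cells, and p-values then measure only the spread between arrays, which may be technical. Array values were on a log2 scale and ran from 1.09 to 13.89, and a difference of 1 on that scale is a doubling.

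MEF2C is a transcription factor of striated and smooth muscle whose γ segment, kept or skipped by splicing, is known to repress transcription. SRF belongs to the same MADS-box family. It binds the CArG box of contractile and cytoskeletal genes, and the coactivators that it pairs with, myocardin and the actin-regulated MRTF proteins, set how strongly those genes are read. In the heart most of the contractile proteins described here are best known from arterial smooth muscle, pericytes and activated fibroblasts. Smooth muscle actin and transgelin are also made by immature cardiomyocytes, and vinculin anchors actin at the intercalated disc. In bulk RNA, fewer cells of a type and less RNA per cell cannot be told apart.

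RefSeq promoter windows of the rat assembly GRCr8 were at hand for 6 of the 10 genes (Acta2, Actg2, Cnn1, Smtn, Vcl and Srf), and the 250 bases before each start were searched. A CArG box, CC and GG around 6 bases that are A or T, was looked for with no mismatch and with 1 mismatch; the motif reads alike on both strands. The Srf window held 2 perfect boxes, beginning 81 and 61 bases before the start, and another with 1 mismatch at 38. Across all 33469 promoters of the table, 1.5% held a perfect box and 17.7% held one with 1 mismatch. The Acta2 window held 2 boxes with 1 mismatch, at 134 and 84 bases before the start, and the Smtn window held 1 such box (CCTAAAATTG) at 110. The windows of Actg2, Cnn1 and Vcl held no whole CArG box with up to 1 mismatch. The Vcl window opened with CTTATAAGG, such a box short of its first base, which lay outside the window and was not searched. None of the 6 windows held a MEF2 site (found in 2.96% of all promoters). These absences say only that the letters are not in 250 bases. The windows of Srf (chr9:21923826-21924075, plus strand) and Acta2 (chr1:241172504-241172753, minus strand) are shown because SRF is the factor and Acta2 a much studied target, and that of Cnn1 (chr8:28908187-28908436, plus strand) because Cnn1 differed most between the groups. Capitals mark CArG boxes with at most 1 mismatch.
Srf: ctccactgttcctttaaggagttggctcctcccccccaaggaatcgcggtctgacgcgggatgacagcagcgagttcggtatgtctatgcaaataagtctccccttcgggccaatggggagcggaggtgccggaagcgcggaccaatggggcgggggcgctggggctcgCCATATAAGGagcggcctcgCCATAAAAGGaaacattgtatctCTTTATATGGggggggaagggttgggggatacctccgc
Acta2: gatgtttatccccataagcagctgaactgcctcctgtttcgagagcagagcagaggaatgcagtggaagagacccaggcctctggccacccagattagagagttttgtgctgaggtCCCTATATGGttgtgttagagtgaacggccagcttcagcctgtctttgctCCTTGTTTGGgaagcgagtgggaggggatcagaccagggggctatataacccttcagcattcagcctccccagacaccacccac
Cnn1: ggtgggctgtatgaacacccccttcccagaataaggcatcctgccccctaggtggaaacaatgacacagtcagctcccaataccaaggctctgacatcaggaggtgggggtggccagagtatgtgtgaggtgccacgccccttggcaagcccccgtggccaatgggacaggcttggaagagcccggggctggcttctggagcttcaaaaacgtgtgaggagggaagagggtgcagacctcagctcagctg

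In the γ+ cultures 9 of the 10 genes fell relative to control cultures and none rose, with limma's moderated test at an adjusted p under 0.05. The drop was deepest for Cnn1, at 3.52-fold, followed by Actg2 at 2.18-fold, and was between 1.34-fold and 1.73-fold for Acta2, Tagln, Myh11, Myl9, Lmod1, Vcl and Srf. Smtn did not pass (log2 difference -0.17, adjusted p = 0.104). Over all genes tested 38.7% were called lower in the same comparison and 26.2% higher. The median log2 difference was -0.60 for the 10 genes and -0.07 for all genes. The 3 γ+ arrays lay below the 3 control arrays in 9 of the 10 genes, where this held for 40% of all genes.

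The γ+ arrays appear to have been normalized apart from the others, because exactly equal values occurred in every pair of arrays inside 3 sets (the control and 23/24 arrays together, the γ+ arrays, the γ- arrays) and in 0 of 45 pairs between sets. No label names such sets. If the reading is right, set and group cannot be told apart for γ+ and for γ-, whereas the 23/24 and control arrays shared a set. All 10 genes kept their direction in γ+ cultures when the arrays were centred on their medians or quantile-normalized, and 9 stayed called under each. The split of the calls over all genes moved with centring: it was 2631 higher and 3878 lower as deposited and 3187 higher and 3041 lower after median centring.

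**Figure D1:**
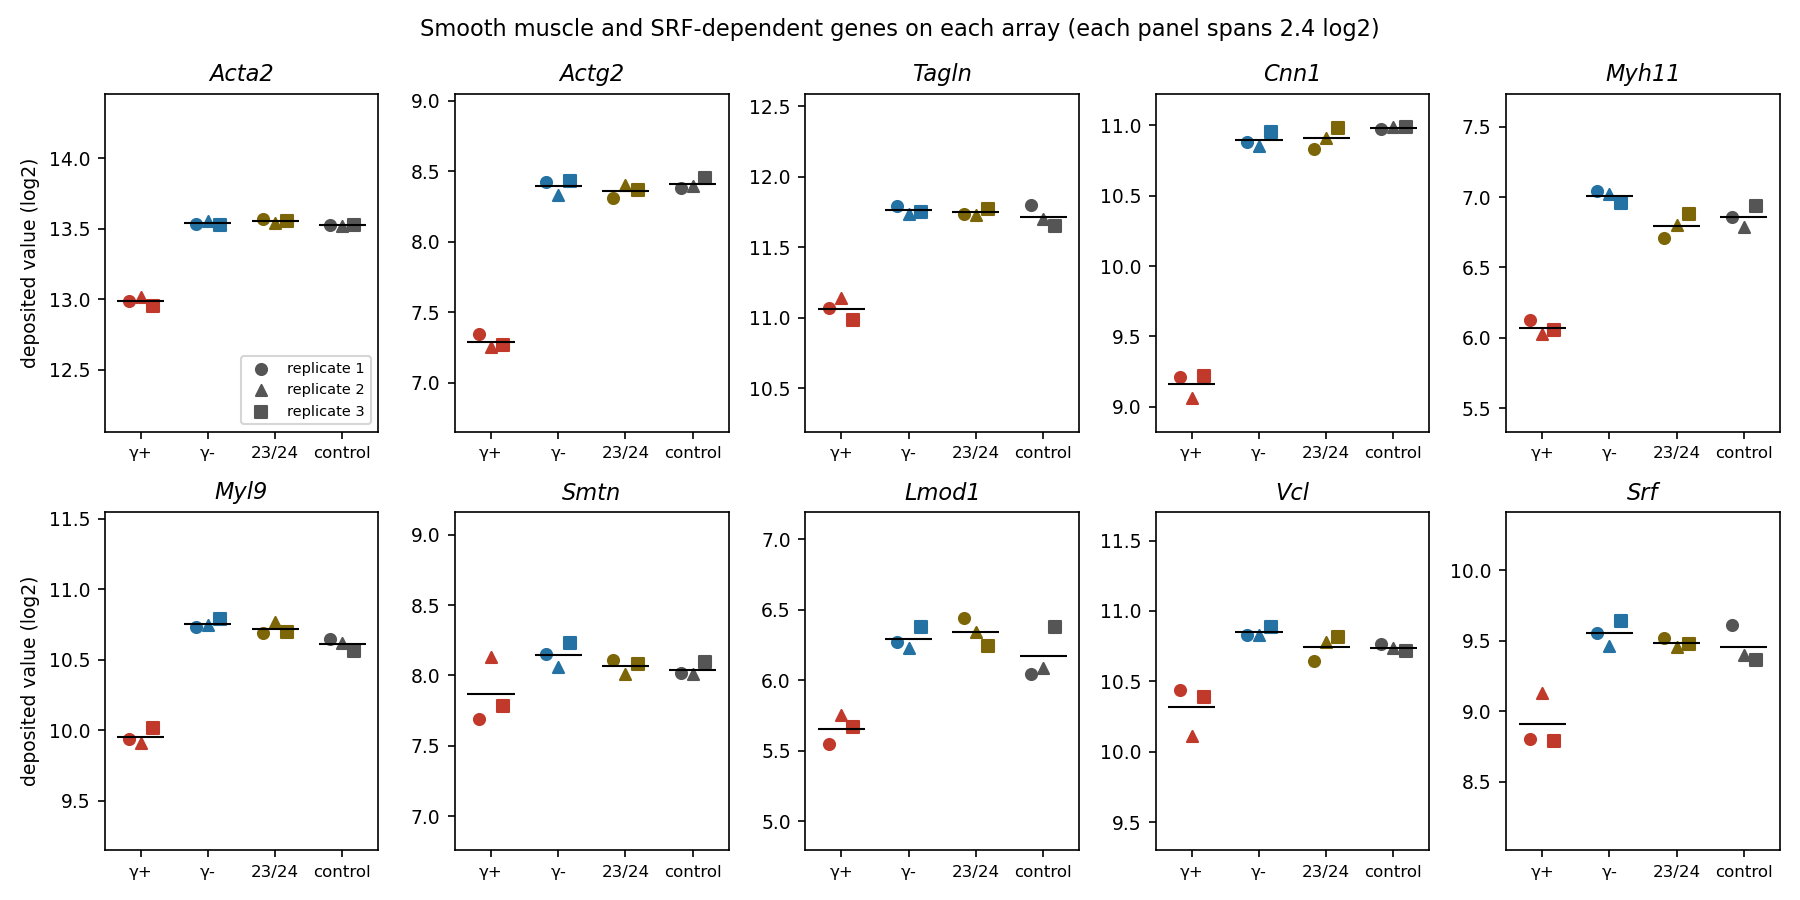
Deposited log2 value of each of the 10 genes on each of the 12 arrays, with γ+, γ-, 23/24 and control groups from left to right, a symbol for each replicate number and a line at the group mean. In 9 panels the 3 γ+ arrays sit below the other 9 arrays, as they did for 31.5% of all genes, and in the Smtn panel γ+ replicate 2 (8.13) lies among the other groups.

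Acta2 encodes smooth muscle α-actin, the thin filament actin of vessel walls. Its values were 12.99, 13.02 and 12.95 on the γ+ arrays, against 13.53, 13.52 and 13.53 on the control arrays. They were 13.53, 13.56 and 13.53 on the γ- arrays and 13.57, 13.54 and 13.55 on the 23/24 arrays. The γ+ arrays were thus clear of the other 9, which lay within a narrow band. The difference from control was -0.54 ± 0.04 log2 (SE, n = 3 per group, adjusted p = 1.0e-09). Its values lay near the highest in the table, 13.89, and whether the top of the scale narrowed its difference was not tested. Over the alternative settings the difference ran from -0.56 to -0.38, the smallest under quantile normalization.

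Actg2 encodes the γ smooth muscle actin of the gut and other viscera. It read 7.35, 7.25 and 7.26 on the γ+ arrays, against 8.39, 8.40 and 8.45 on the control arrays. The γ- arrays, at 8.42, 8.33 and 8.43, and the 23/24 arrays, at 8.31, 8.40 and 8.37, overlapped the control arrays. The γ+ difference from control was -1.12 ± 0.06 (SE, n = 3 per group, adjusted p = 4.3e-11). Muscle actins share most of their coding sequence, so hybridisation of one actin to the probes of another is possible and was not tested. The 4 other actins were called lower in γ+ cultures against control too, as were 38.7% of all genes. The skeletal Acta1 changed by -1.08 ± 0.05 and the cardiac Actc1 by -1.23 ± 0.04, while the cytoplasmic Actb changed by -0.23 ± 0.04 and Actg1 by -0.37 ± 0.08 (SE; -0.25 for Actg1 without γ+ replicate 2). Quantile normalization took the call from Actb (-0.03, adjusted p = 0.454) and left the others, with Actg1 at -0.20. Within an array the log2 distance of Actg2 below Acta2 was 5.64 to 5.76 on γ+ arrays and 5.08 to 5.14 on control arrays. An exact two-sided permutation test of that distance gave p = 0.1, the smallest that 3 against 3 arrays allow (0.14 adjusted over the 7 within-array differences compared), so that no such difference could pass the threshold.

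Among the actin-binding proteins of the 10 genes, Cnn1 fell most. It encodes calponin 1, which restrains actomyosin in smooth muscle. Cnn1 measured 9.21, 9.06 and 9.22 on the γ+ arrays, against 10.97, 10.98 and 10.99 on the control arrays. The γ- arrays gave 10.88, 10.85 and 10.95, and the 23/24 arrays 10.83, 10.91 and 10.98. No γ+ array came near any other array. The difference from control was -1.82 ± 0.06 (SE, n = 3 per group, adjusted p = 1.4e-13), and only 95 of the 10025 genes fell further. Cnn1 was also the 1 gene of the 10 that was called against a minimum change of 1 log2. The within-array distance between Cnn1 and Acta2 changed by -1.28, and that between Cnn1 and Srf by -1.27, each with all 3 γ+ arrays beyond the control arrays (exact permutation p = 0.1 for each, 0.14 adjusted over the 7).

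Tagln encodes transgelin (SM22), an actin cross-linking protein that appears early in smooth muscle differentiation. It ranged from 10.98 to 11.14 on γ+ arrays, against 11.65 to 11.80 on control arrays, a difference of -0.66 ± 0.05 (SE, adjusted p = 7.6e-09). Lmod1, the smooth muscle leiomodin that nucleates actin filaments, ranged from 5.55 to 5.76 on γ+ arrays and from 6.05 to 6.38 on control arrays. Its difference was -0.52 ± 0.10 (adjusted p = 1.8e-04). Its mean over the 12 arrays was under the stricter filter at the 60th percentile, where it was not tested.

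Smtn encodes smoothelin, a stress-fibre protein of contractile smooth muscle. Its values were 7.69, 8.13 and 7.78 on the γ+ arrays, against 8.02, 8.01 and 8.10 on the control arrays. Replicate 2 of the γ+ group was above all 3 control arrays and the other two γ+ arrays were below them, so the groups overlapped. Without γ+ replicate 2 the difference was -0.30 in place of -0.17, and Smtn was called (adjusted p = 2.7e-04), as it was when arrays were weighted by their fit (-0.28, adjusted p = 2.9e-04). The difference was smaller without γ+ replicate 1 (-0.08, adjusted p = 0.437) and after median centring (-0.08, adjusted p = 0.441). The array of γ+ replicate 2 carried an array weight of 0.135, the lowest of the 12, and stood apart for Srf and Vcl as well.

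The myosin genes fell together. Myh11, the smooth muscle myosin heavy chain, ranged from 6.03 to 6.13 on γ+ arrays, against 6.79 to 6.93 on control arrays (-0.79 ± 0.07, adjusted p = 4.8e-08). Myl9, the regulatory light chain that is phosphorylated to start contraction in smooth muscle and non-muscle cells, ranged from 9.91 to 10.01 on γ+ arrays and from 10.56 to 10.65 on control arrays (-0.66 ± 0.05, adjusted p = 5.0e-09). Neither gene's γ+ arrays overlapped those of any other group.

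Vcl encodes vinculin, which links integrins and cadherins to actin at focal adhesions and intercalated discs. It read 10.44, 10.12 and 10.39 on the γ+ arrays, against 10.76, 10.74 and 10.72 on the control arrays. All γ+ arrays were lower, and replicate 2 was the lowest of them. The difference was -0.42 ± 0.07 (adjusted p = 6.6e-05), and -0.32 without that replicate (adjusted p = 4.6e-06). Srf itself read 8.80, 9.13 and 8.79 on the γ+ arrays, against 9.61, 9.40 and 9.36 on the control arrays. Here replicate 2 was the highest γ+ array, yet it stayed below every control array. Srf differed by -0.55 ± 0.09 (SE, n = 3 per group, adjusted p = 3.1e-05), and by -0.66 without γ+ replicate 2 (adjusted p = 3.2e-08).

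**Figure D2:**
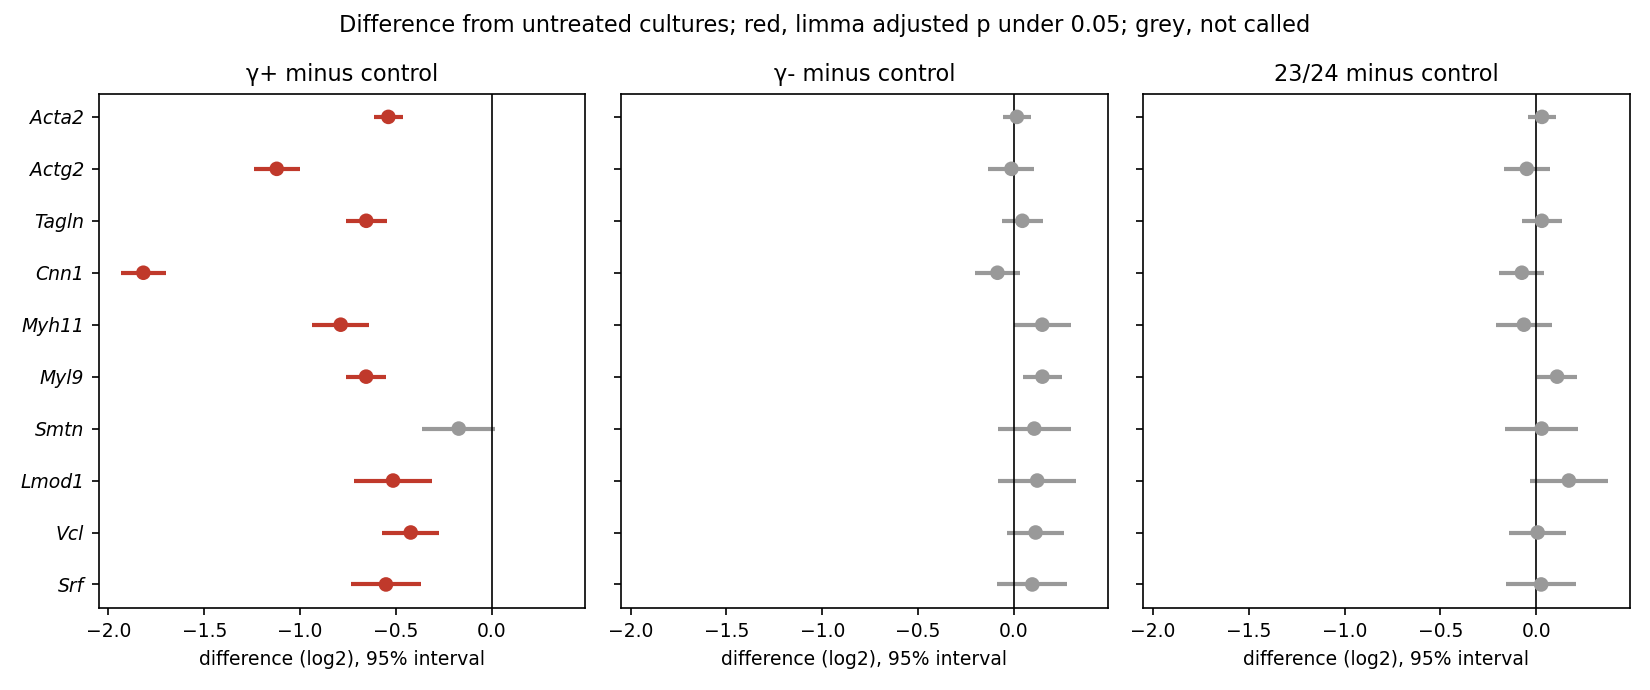
Difference in mean log2 level from control cultures for each gene (points) with its 95% interval from limma (lines), in γ+, γ- and 23/24 cultures from left to right on a shared axis; red marks an adjusted p under 0.05. In γ+ cultures all 10 points lie left of 0. The 9 red ones run from -1.82 for Cnn1 to -0.42 for Vcl, and Smtn (-0.17) is not red. No gene is red in γ- or 23/24 cultures.

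The γ- form, which lacks the repressing segment, was set against control cultures next. None of the 10 genes was called by limma (1 had an unadjusted p under 0.05), in a comparison where 6.94% of all genes were. The log2 differences ran from -0.09 for Cnn1 to 0.15 for Myl9, with a median of 0.10 against -0.01 for all genes. Myl9 came closest to the threshold. It read 10.74, 10.74 and 10.79 on the γ- arrays, against 10.65, 10.62 and 10.56 on the control arrays. Its γ- arrays were above all control arrays, with a difference of 0.15 ± 0.05 (SE, n = 3 per group, adjusted p = 0.0767). It was called when arrays were weighted by their fit (0.14, adjusted p = 0.0215) and when the 6 arrays were fitted alone (adjusted p = 0.0213). The arrays of γ- and control did not overlap for 5 genes, higher for Acta2, Myh11, Myl9 and Vcl and lower for Cnn1, where 33.4% of all genes had no overlap. The 95% interval was -0.06 to 0.09 for Acta2, -0.13 to 0.11 for Actg2, -0.20 to 0.03 for Cnn1 and -0.09 to 0.28 for Srf, all clear of the fall seen in γ+ cultures.

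The 23/24 cultures were compared with control cultures inside what appears, from the equal values, to be 1 normalization set. None of the 10 genes was called by limma (1 of 10 had an unadjusted p under 0.05), and 0% of all genes were called (899 at an unadjusted p under 0.05, and 220 called with array weights, none of them among the 10). The differences ran from -0.08 for Cnn1 to 0.17 for Lmod1, with a median of 0.03. The gene with the unadjusted p under 0.05 was again Myl9, which read 10.69, 10.77 and 10.69 on the 23/24 arrays, each above the highest control array at 10.65 (0.11 ± 0.05, adjusted p = 0.533). Arrays did not overlap for Myl9 and Acta2, where 17.9% of all genes had no overlap. The 95% interval was -0.04 to 0.10 for Acta2, -0.19 to 0.04 for Cnn1 and -0.16 to 0.21 for Srf.

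Set directly against each other, the forms with and without the segment differed in all 10 genes, which were lower in γ+ than in γ- cultures (37.5% of all genes were called lower). The arrays did not overlap, with γ+ lower, for 9 of the 10 genes and for 39.4% of all genes. The median log2 difference was -0.67 for the 10 genes and -0.06 for all genes. Cnn1 differed by -1.73 ± 0.06, Actg2 by -1.11 ± 0.06 and Myh11 by -0.94 ± 0.07. Myl9 differed by -0.80 ± 0.05, Srf by -0.65 ± 0.09 and Vcl by -0.54 ± 0.07 (SE, n = 3 per group). The weakest of the calls was Smtn (-0.28 ± 0.09, adjusted p = 0.0129), whose arrays overlapped and which missed the threshold under median centring (adjusted p = 0.0605) and without γ+ replicate 1, γ+ replicate 3 or γ- replicate 3 (adjusted p = 0.0797, 0.0537 and 0.0592).

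Against the 23/24 form, the γ+ form gave lower values in 9 of the 10 genes (37.9% of all genes were called lower, and 39.1% were lower with no overlap). Cnn1 differed by -1.74 ± 0.06, Actg2 by -1.07 ± 0.06, Myl9 by -0.76 ± 0.05, Acta2 by -0.57 ± 0.04 and Srf by -0.58 ± 0.09 (SE, n = 3 per group). Smtn did not pass (-0.20 ± 0.09, adjusted p = 0.0606) unless γ+ replicate 2 was left out (-0.33, adjusted p = 1.1e-04) or arrays were weighted (-0.29, adjusted p = 6.3e-05). For Smtn the difference was -0.11 without γ+ replicate 1 (adjusted p = 0.290) and -0.06 after median centring (adjusted p = 0.565). The comparisons of γ+ cultures with each of the other groups share the γ+ arrays. Between the γ- and 23/24 cultures none of the 10 genes was called by limma (1 at an unadjusted p under 0.05), where 8.1% of all genes were. The largest difference there was in Myh11, which ranged from 6.96 to 7.04 on γ- arrays and from 6.71 to 6.88 on 23/24 arrays (0.21 ± 0.07, adjusted p = 0.0728, 95% interval 0.06 to 0.36), and it was called after median centring (0.28, adjusted p = 0.0436), with array weights and with the 6 arrays alone. Its arrays and those of Vcl did not overlap between γ- and 23/24, where 36.2% of all genes had no overlap.

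For 10 of 10 genes the γ+ group had the lowest mean. The share of all genes with their lowest mean in γ+ cultures was not computed. By the stricter rule that all 3 γ+ arrays lie below the other 9, it was 31.5% of all genes. The highest mean was in γ- cultures for Tagln, Myh11, Myl9, Smtn, Vcl and Srf, in 23/24 cultures for Acta2 and Lmod1, and in control cultures for Actg2 and Cnn1. Between those 3 groups no difference passed limma's adjusted threshold in any of the 10 genes, so that neighbours in this order were not told apart. In the settings named above Myl9 was called in γ- against control and Myh11 in γ- against 23/24. Each of these calls set the highest of the 3 means against the lowest, not neighbours.

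**Figure D3:**
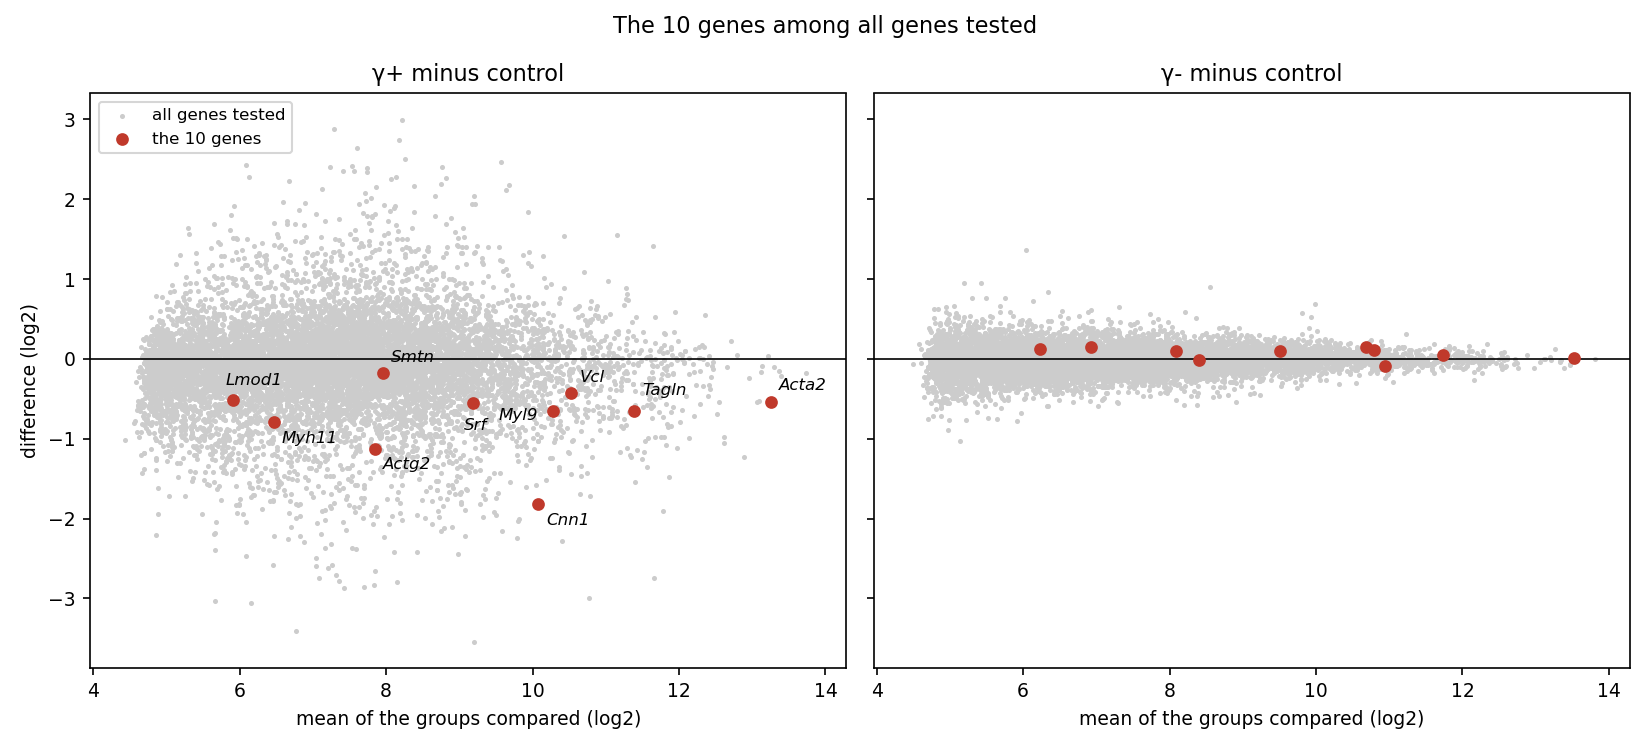
Log2 difference (vertical axis) against mean log2 level of the groups compared (horizontal axis) for all 10025 genes (grey) and the 10 genes (red), for γ+ minus control on the left and γ- minus control on the right. Most of the 10 lie in the lower part of the cloud in γ+ cultures, with Cnn1 at -1.82, and close to 0 in γ- cultures.

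Other genes of the same program were followed in lists. All 13 tested genes of a list of other smooth muscle genes fell in γ+ cultures against control (17 listed, 4 without a single-gene probe set). Their median was -0.95 against -0.07 for all genes, of which 38.7% were called lower in that comparison. Pdlim3, an actinin-binding LIM protein, changed by -1.63 ± 0.05 and Des, the muscle intermediate filament desmin, by -1.48 ± 0.05. Several on this list, Des among them, are also made by heart muscle. All 13 tested genes of the cytoskeletal and focal adhesion SRF targets fell (14 listed, median -0.83), led by the actin cross-linker filamin A, Flna (-1.52 ± 0.07), and Tgfb1i1, the focal adhesion adaptor Hic-5 (-1.23 ± 0.10). In γ- cultures against control 0 of 13 genes of the smooth muscle list and 1 of 13 of the cytoskeletal list were called, the fibronectin receptor subunit gene Itga5, which was lower and is named after its value was seen, where 6.94% of all genes were called. In 23/24 cultures against control none was called on either list.

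The partners of SRF went in both directions. Of 7 tested, 5 fell and 1 rose in γ+ cultures against control (10 listed, median -0.65). Over all genes 38.7% were called lower and 26.2% higher in that comparison, with a median of -0.07. Myocd, which encodes the coactivator myocardin, averaged 8.59 in γ+ and 9.97 in control cultures, a difference of -1.39 ± 0.10 (adjusted p = 3.7e-09). Fhl2, a LIM protein that binds SRF, changed by -1.43 ± 0.07. Csrp2, a LIM protein of smooth muscle named after its value was seen, rose by 0.72 ± 0.08 in γ+ cultures. It was also called higher in γ- cultures against control (0.58), where 6.94% of all genes were called in either direction. Elk4, a ternary complex factor that binds beside SRF, was not called (-0.25 ± 0.11, adjusted p = 0.0588) unless γ+ replicate 2 (-0.42, adjusted p = 1.9e-04) or control replicate 2 (-0.32, adjusted p = 0.0378) was left out or arrays were weighted (-0.38, adjusted p = 1.8e-04). The Elk4 difference was -0.17 without γ+ replicate 3 (adjusted p = 0.233) and -0.16 after median centring (adjusted p = 0.214). Mrtfa and Mrtfb were not analysed here.

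Of the immediate early genes that SRF also drives, 5 of 9 tested were lower and none higher in γ+ cultures against control, where 38.7% of all genes were called lower, and their median was -0.30. Ccn2, the matrix-associated connective tissue growth factor, changed by -1.96 ± 0.08 and the zinc finger factor Egr2 by -0.84 ± 0.11. Fos (-0.08 ± 0.09), Egr1 (-0.19 ± 0.12), Egr3 (0.03 ± 0.10) and Ier2 (-0.16 ± 0.07), the members that were not called, are named after their values were seen. In γ- cultures against control 1 gene of the 9 was called, where 6.94% of all genes were. It was Ccn1, which encodes a matricellular protein and is named after its value was seen. Its difference was -0.20 ± 0.05 (adjusted p = 0.0264), against -0.64 ± 0.05 in γ+ cultures.

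**Figure D4:**
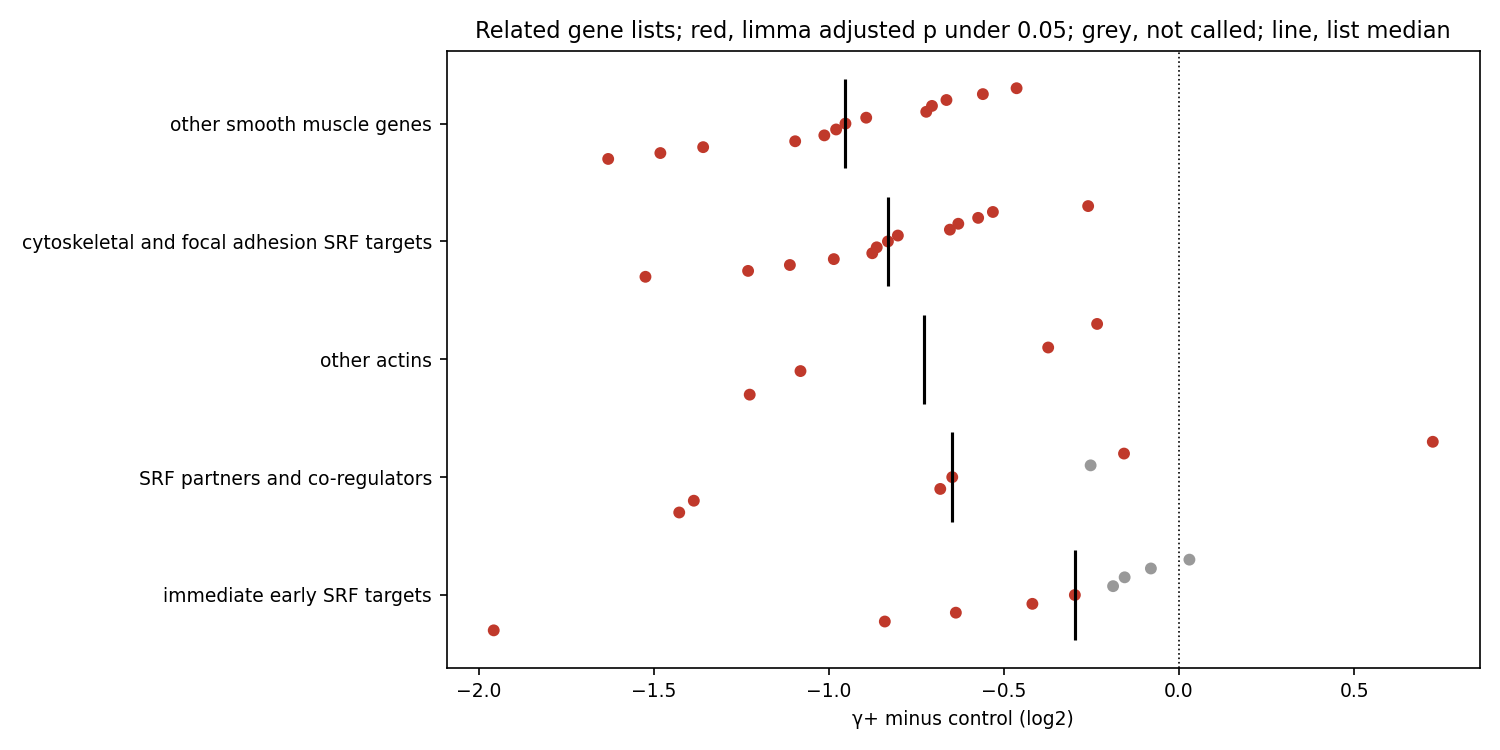
Log2 difference of γ+ minus control cultures for each tested gene of 5 related lists, 1 list per row, with a vertical line at the list median; red marks an adjusted p under 0.05 and grey no call. The smooth muscle and cytoskeletal lists lie wholly left of 0, with medians of -0.95 and -0.83, and the SRF partners lie on both sides, with a median of -0.65.

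Markers of the labelled cell type and of other cell types were looked up. Passing the filter, as 10025 genes did, cannot tell which cells were present. All 10 cardiomyocyte markers were over the filter, and so were all 10 of fibroblasts, all 8 of pericytes and mural cells, 7 of 8 of endothelium (Vwf had no single-gene probe set) and 5 of 8 of macrophages (Ptprc, C1qa and Adgre1 were below the filter). Markers of the other cells moved with the 10 genes in γ+ cultures against control, a comparison in which 38.7% of all genes were called lower. The fibroblast list had 10 of 10 lower than control, with a list mean of 8.22 to 8.39 on γ+ arrays and 9.64 to 9.65 on control arrays. The pericyte and mural list had 8 of 8 lower (6.72 to 6.82 against 7.67 to 7.75) and the endothelial list 7 of 7 (5.58 to 5.70 against 6.45 to 6.51). The macrophage list had 3 of 5 lower (6.03 to 6.06 against 6.32 to 6.35). Cardiomyocyte markers fell as well, 10 of 10, with a list mean of 10.36 to 10.42 on γ+ arrays and 11.59 to 11.64 on control arrays. The list mean of the 10 genes was 8.91 to 8.95 on γ+ arrays and 9.62 to 9.67 on control arrays. The part of these cell types in the falls was not tested.

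The log2 difference from control ran from -2.16 to -0.57 over the cardiomyocyte markers (median -1.13) and from -2.11 to -0.82 over the fibroblast markers (median -1.35), beside -1.82 to -0.17 over the 10 genes. Within arrays, the distance of Acta2 to Tnnt2, the cardiomyocyte marker that fell least, changed by 0.03, and that to the fibroblast collagen gene Col1a1 by 1.15. The distance of Cnn1 to Col1a1 changed by -0.12 and that of Vcl to Acta2 by 0.12. For both distances to Col1a1 the γ+ arrays were clear of the control arrays (exact permutation p = 0.1 for each, 0.14 adjusted over the 7). The groups overlapped for Acta2 to Tnnt2 and for Vcl to Acta2 (exact permutation p = 0.4 for each). For Vcl, γ+ replicate 2 was at -2.90, below the control arrays (-2.81 to -2.76), and the other γ+ arrays were above them. Tnnt2 and Col1a1 are single markers, and their distances do not stand for the lists.

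**Figure D5:**
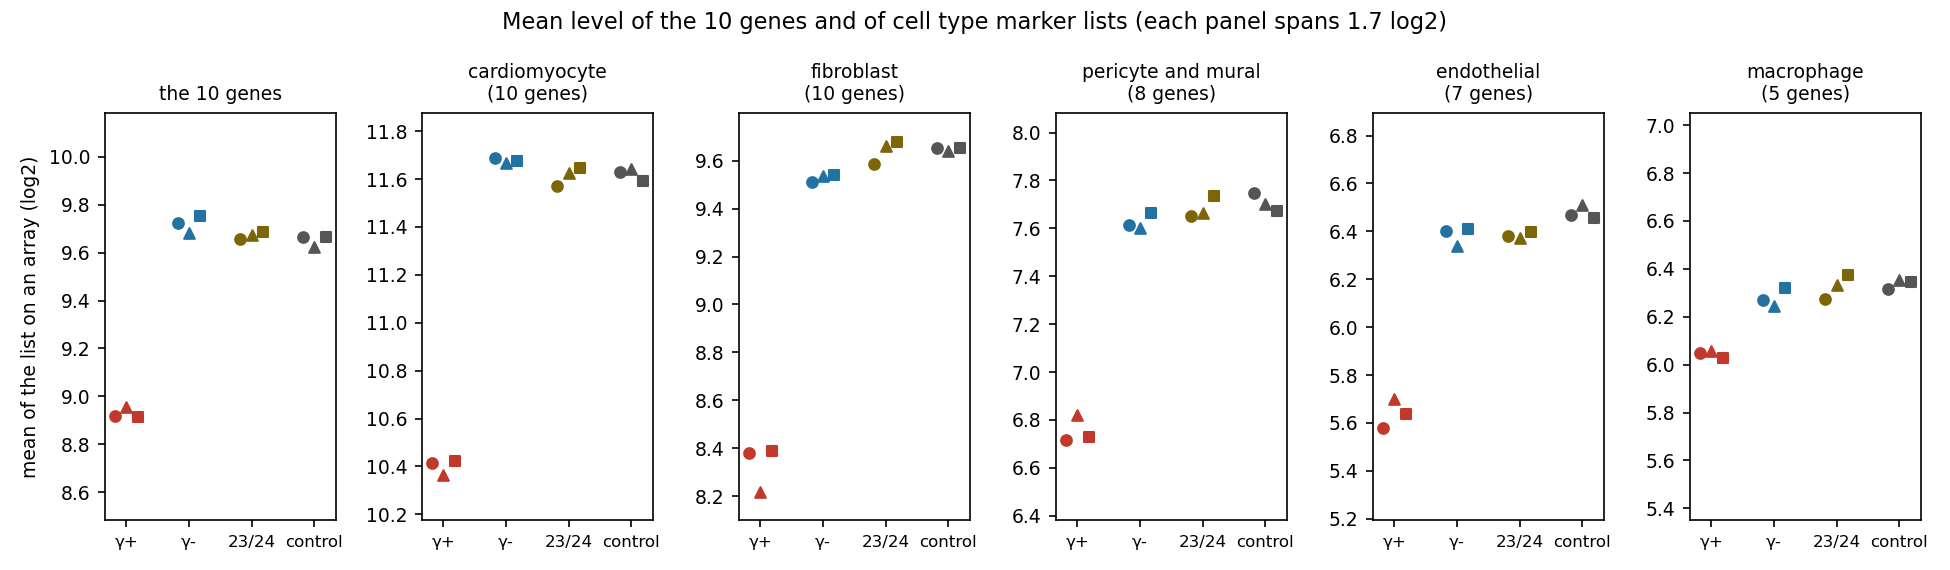
Mean log2 level of the 10 genes and of 5 marker lists on each of the 12 arrays, with γ+, γ-, 23/24 and control groups from left to right in each panel and a symbol for each replicate (circle 1, triangle 2, square 3). In every panel the 3 γ+ arrays are the lowest, at 8.91 to 8.95 for the 10 genes and 8.22 to 8.39 for the fibroblast markers.

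The genes whose pattern was most like the mean of the 10 were found by the root mean square difference of log2 values over the 12 arrays, each gene centred on its own mean. They were the mitochondrial dehydrogenase subunit Idh3a (0.031), the AP-1 factor Fosl2 (0.032), the elastic fibre protein gene Efemp2 (0.040), the complex I subunit Ndufb9 (0.044) and the galectin gene Lgals1 (0.046). Of 10012 named genes outside the 10, 508 were nearer to that mean than the median of the 10 genes themselves (0.119). The 10 spread from 0.055 for Tagln to 0.444 for Cnn1. Nearest to Srf were Pnkd (0.068), the membrane scaffold gene Flot2 (0.070), the LIM protein gene Pdlim7 (0.071), Slc22a23 (0.073) and the adhesion adaptor gene Bcar1 (0.073).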

How the data were processed

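The deposited values were 1 table of the series, taken as log2 because of their range. MAS5 appears in the submitters' processing notes without a version. How background was subtracted, how probes were combined, which log base applies and how arrays were scaled is not given in the sources used here. Of the 28826 probe sets, 15209 carried 1 gene symbol in the platform's annotation, 306 several and 13311 none, and symbols were updated by Entrez identifier from the RefSeq table of GRCr8. Probe sets with a mean at or below the 40th percentile (4.78) were dropped, and the brightest single-gene probe set stood for a gene. The main test was limma (version 3.58.1, under R 4.3.3), with lmFit and eBayes, an intensity trend and a mean per group over all 12 arrays; p-values were Benjamini-Hochberg adjusted over 10025 genes in each comparison. The procedure was tested on simulated data. The number of arrays limits the precision. The members, lists and tests were chosen with earlier results of these data known. Values are named for all 10 genes, for fixed SRF partners and actins, and for the 2 called genes of largest change per list. Alternatives were median centring, quantile normalization, other filters, the mean over probe sets, no trend, array weights, a replicate block, the 6 compared arrays alone, a minimum change of 1 log2 and leaving out each array. Protein sequences were not used here. The result of 1 further gene list is not reported here.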

Additional observations from a re-analysis of the deposited data

How the results depend on the processing

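In γ+ cultures against control the count of the 10 genes called lower was 9 to 10 when single arrays were left out, 10 with array weights, 8 under the 60th percentile filter (Lmod1 not tested), and 1 against a minimum change of 1 log2; none of these settings reversed a gene. The minimum change also left 1 gene in γ+ against γ- and 1 in γ+ against 23/24. In γ- cultures against control 1 gene, Myl9, was called with array weights and 1 with the 6 arrays alone (adjusted p = 0.0215 and 0.0213), and in γ- against 23/24 cultures 1, Myh11, with median centring, 1 with array weights and 1 with the 6 arrays alone (adjusted p = 0.0436, 0.0172 and 0.0422). Signs turned for genes that were not called. In γ- against control Actg2 was 0.0021 with median centring and -0.032 to 0.018 over left-out arrays. In 23/24 against control median centring gave -0.019 for Acta2, -0.020 for Tagln, -0.021 for Smtn, -0.023 for Srf and -0.042 for Vcl, array weights gave -0.0059 for Srf, and left-out arrays gave -0.021 to 0.10 for Srf, -0.0032 to 0.070 for Tagln and -0.027 to 0.056 for Vcl. In γ- against 23/24 median centring gave 0.050 for Acta2, 0.053 for Cnn1 and 0.015 for Lmod1, quantile normalization 0.018 for Acta2, and left-out arrays -0.0011 to 0.027 for Tagln and -0.049 to 0.026 for Cnn1. The causes were not tested.

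Counts over all genes moved more. Against a minimum change of 1 log2 they were 516 in γ+ against control (6509 without it), 467 in γ+ against γ- (6433), 489 in γ+ against 23/24 (6599), 0 in γ- against control and 0 in γ- against 23/24. In γ- against control, the 696 calls became 436 with median centring, 1745 with array weights, 1363 without a filter, 425 under the 60th percentile filter, 1373 with the 6 arrays alone and 267 to 343 with an array left out. In γ- against 23/24, the 812 calls became 2528 with array weights, 1641 without a filter, 488 under the 60th percentile filter, 1760 with the 6 arrays alone and 263 to 529 with an array left out. In 23/24 against control, 0 became 1 with quantile normalization, 220 with array weights and 0 to 1 with an array left out. Median centring moved the median of all genes in γ+ against 23/24 from -0.07 to 0.07 and the share of higher genes among its calls from 42.5% to 58.5% (51.4% to 77.9% in γ- against 23/24).

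The replicate numbers gave no sign of pairing. Deviations from the group mean correlated over 0.1 in 1 of 18 same-numbered pairs and in 8 of 36 different-numbered pairs. Of 12 arrays, 2 correlated best with their own number. Whether same-numbered arrays shared an isolation of cells was not tested. With the replicate block 9 of the 10 genes were called lower in γ+ against control, 10 in γ+ against γ- and 9 in γ+ against 23/24, and 6401, 514 and 0 genes were called in γ+, γ- and 23/24 cultures against control.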
